A study of Mus musculus with 10 samples.

Results

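A set of 10 genes that carry the insulin and insulin-like growth factor (IGF) signal was followed in the left ventricle of mice with heart failure with preserved ejection fraction (HFpEF) and of control mice. The genes were Igf1, Insr, Igf1r, Irs1, Irs2, Pik3r1, Akt1, Akt2, Foxo1 and Foxo3, taken by symbol as 10 of 29564 genes in the deposited tables, and all 10 passed the filter on low counts. Poly(A) RNA was sequenced from 5 control mice (TT-583 to TT-587) and from 5 mice of the disease model, named HFD+mTAC here (TT-588 to TT-592), each mouse a separate animal. All were wild-type male C57BL/6J mice. Control mice ate standard chow with 10% of calories from fat and had no surgery. HFD+mTAC mice had moderate transverse aortic constriction (mTAC), a narrowing of the aorta that loads the ventricle, at 11 weeks of age and then ate a high-fat diet (HFD) with 60% of calories from fat. By the study's methods, dosing started 16 weeks after this induction. The series lists vehicle (DMSO, PEG-300 and water) for both groups, and its protocol describes dosing for 6 to 9 weeks for the HFD+mTAC mice. Diet and surgery were applied together, so their effects cannot be told apart in these samples, and no sham surgery is described for the controls.

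Insulin and IGF1 bind receptor tyrosine kinases at the cell surface, and the active receptor phosphorylates the insulin receptor substrate (IRS) adaptors. These recruit phosphoinositide 3-kinase (PI3K), whose lipid product brings AKT to the membrane. AKT moves the glucose transporter GLUT4 to the surface, activates the growth kinase TORC1 and keeps the FoxO transcription factors out of the nucleus. In the heart the pathway governs glucose uptake and growth of cardiomyocytes, and most of its traffic is phosphorylation, which RNA levels do not show.

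Libraries held 34.2 to 53.7 M estimated counts in controls and 35.8 to 46.7 M in HFD+mTAC mice, with 43.8 to 52.7% of counts on mitochondrially encoded genes. The 6 cardiomyocyte markers summed to between 46503 and 59747 CPM (counts scaled to a common library size) in every library, and the summed adipocyte markers reached at most 4.67 CPM, so the defining markers of the labelled tissue were present. Within the cardiomyocyte list, the sum was 53869 to 59747 CPM in control mice and 46503 to 52544 CPM in HFD+mTAC mice, so the groups did not overlap. The exact permutation test of 5 against 5 mice gave a two-sided p of 0.00794, the smallest it can give, unadjusted over the marker lists. Taken singly, each gene of the list overlapped between the groups. The genes of the list had a median log2 fold change of -0.21, negative for 6 of 6, and 0 of 6 passed the adjusted threshold (2 had an unadjusted p under 0.05). Summed markers of fibroblasts, endothelial cells, macrophages, smooth muscle and pericytes, atrial cardiomyocytes, mesothelial cells and red blood cells overlapped between the groups, with an exact permutation p from 0.103 (atrial) to 0.913 (fibroblast) for 5 against 5 mice. The atrial sum was nearly all Nppa (229 of 232 CPM in mouse TT-583), so it follows 1 gene and is no measure of the whole list. Of the 6 macrophage markers 5 were listed, and the mesothelial marker Msln was at 0.

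In CPM, the ligand, receptor, PI3K, AKT and FoxO genes and Irs2 had group means that differed by less than the larger of the group SDs. The largest log2 fold change from counts was that of the adaptor gene Irs1, at 41.4 ± 7.13 CPM in control and 28.2 ± 6.23 CPM in HFD+mTAC mice (SD, n = 5). With edgeR's quasi-likelihood test and Benjamini-Hochberg adjustment over 13291 genes, 0 of the 10 genes passed an adjusted p of 0.05, where 8 of all genes (0.0602%) did. Irs1, 1 of the 10, had an unadjusted p under 0.05, against 8.27% of all genes in either direction and 3.72% lower in HFD+mTAC mice. DESeq2, which called 118 genes (0.888%) in all, and limma on log2(TPM + 1), which called 1 (0.00752%), also called 0 of the 10. Both left Irs1 as the only one of the 10 with an unadjusted p under 0.05, beside 8.87% of all genes with DESeq2 and 6.7% with limma. Fold changes from counts were positive for 3 genes and negative for 7, beside 49.6% negative over all genes tested. Their median log2 value was -0.11, beside 0.0016 over all genes tested. The signs of Igf1r, Pik3r1, Akt1 and Akt2 turned with transcript lengths in the model, so no direction is given for the set. On the CPM scale 0 of the 10 had groups that did not overlap, against 1.96% of all genes. In bulk tissue, fewer cells of a type and less RNA per cell cannot be told apart.

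**Figure D1:**
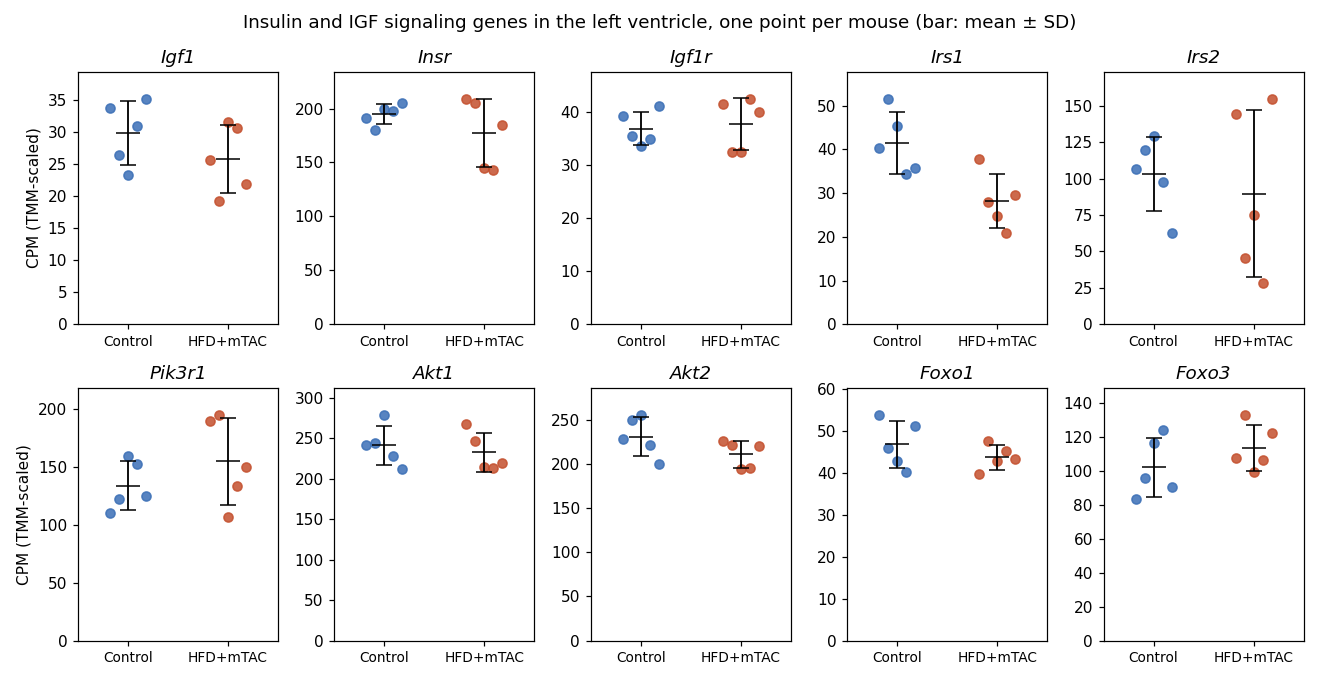
CPM (linear axes from 0, scaled by library size with TMM factors) of each of the 10 genes, with one point per mouse, 5 control mice in blue and 5 HFD+mTAC mice in red, and the mean with its SD in black. Irs1 is the gene whose HFD+mTAC points sit lowest against control, and Irs2 has its widest scatter among the HFD+mTAC mice, from 28.6 to 155 CPM.

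Igf1, the growth factor ligand made locally by the heart's non-muscle cells as well as by the liver, lies on chromosome 10 (87858265 to 87937042, plus strand, GRCm38). Its levels in the 5 control mice were 33.6, 26.3, 23.3, 30.8 and 35.1 CPM. In the HFD+mTAC mice they were 25.6, 19.2, 31.5, 30.6 and 21.8 CPM. The 2 lowest CPM values were both from HFD+mTAC mice, and the other 3 of that group lay within the control range. On the deposited TPM, which also correct for transcript length, controls were at 1.51 to 1.91 and HFD+mTAC mice at 1.46, 0.43, 1.53, 1.40 and 0.86. All HFD+mTAC mice but TT-590 were thus below every control on that scale. The log2 fold change from counts was -0.21 (SE 0.16, 95% interval -0.55 to 0.13, edgeR adjusted p = 0.789). With limma on log2(TPM + 1) it was -0.51 (adjusted p = 0.777). The genes most like Igf1 across the 10 mice were Slc16a9, Tmem167 and Ebf3, with root-mean-square differences of 0.355, 0.397 and 0.408 between standardised log2 levels, among 10095 genes with a mean of at least 5 CPM.

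The 2 receptors had groups that overlapped, with the wider spread among HFD+mTAC mice. Insr, the insulin receptor (chromosome 8, 3122061 to 3279617, minus strand), was measured at 191, 180, 200, 198 and 205 CPM in control mice. Among HFD+mTAC mice it was at 209, 205, 145, 143 and 184 CPM. Mice TT-590 and TT-591 were thus below every control while mice TT-588 and TT-589 were above every control, the latter by less than 1 CPM, and the coefficient of variation was 4.89% in control and 17.98% in HFD+mTAC mice. For Insr the log2 fold change was -0.14 (SE 0.11, 95% interval -0.38 to 0.11, edgeR adjusted p = 0.819). Igf1r, the IGF1 receptor (chromosome 7, 67952827 to 68233668, plus strand), had 39.3, 35.5, 33.8, 34.97 and 41.2 CPM in control mice. Its HFD+mTAC values of 41.6, 32.5, 32.6, 42.6 and 40.2 CPM spanned the whole control range. Its log2 fold change was 0.04 (95% interval -0.19 to 0.26, edgeR adjusted p = 0.958), so that a change of more than about 0.26 on the log2 scale lay outside the interval in either direction. With transcript lengths in the model it was -0.14, and its sign turned in 5 of 19 other settings, so no direction is given. The profile of Insr across mice was closest to those of Clcn3, a chloride transporter of endosomes, Ttn, which encodes the sarcomere spring titin, and Jmy (differences 0.354, 0.360 and 0.366). Dgkq and Stard9 were among the genes closest to Igf1r (0.381 and 0.461).

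Irs1 and Irs2 encode the adaptors that link both receptors to PI3K. Their upstream sequences are shown because Irs1 had the largest log2 fold change of the 10 genes from counts and Irs2 the largest spread between mice. Each is the run of 250 bases just before the RefSeq transcription start in GRCm38.p6, read 5′ to 3′ on the gene's own strand, chr1:82291440-82291689 for Irs1 and chr8:11008930-11009179 for Irs2, both on the minus strand. Capitals mark the E-box CACGTG and the letters CAAAACA, the core of insulin response elements bound by FoxO factors, on either strand (TGTTTTG when read on the opposite strand).
Irs1: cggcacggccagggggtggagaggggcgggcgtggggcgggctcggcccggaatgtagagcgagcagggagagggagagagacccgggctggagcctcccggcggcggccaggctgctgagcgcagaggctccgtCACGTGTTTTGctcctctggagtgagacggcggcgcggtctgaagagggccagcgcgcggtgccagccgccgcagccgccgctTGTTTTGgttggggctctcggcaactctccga
Irs2: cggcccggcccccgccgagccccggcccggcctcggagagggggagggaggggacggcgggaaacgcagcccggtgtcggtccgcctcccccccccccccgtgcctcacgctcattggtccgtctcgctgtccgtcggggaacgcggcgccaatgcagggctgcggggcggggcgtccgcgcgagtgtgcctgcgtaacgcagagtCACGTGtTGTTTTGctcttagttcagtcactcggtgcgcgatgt
In Irs1 the E-box starts 115 bases before the start site and shares its last 2 letters with a TGTTTTG that starts 111 bases before it, and a second TGTTTTG starts 32 bases before it. In Irs2 the E-box starts 44 bases and the TGTTTTG 37 bases before the start site, with 1 base between them. Over all 32851 windows of the RefSeq table, 5.56% held CAAAACA, 6.02% held CACGTG and 0.295% held both. Of the 10 genes, 9 matched the table, in 14 windows, and Irs1 and Irs2 were the ones among them that held CAAAACA or CACGTG. The FoxO letters GTAAACA occurred in 1 of the 14 windows, an Akt1 window, and in 3.17% of all windows. GGGCGG occurred in 8 of the 14 and in 32.7% of all, and the median GC content of all windows was 52.4%, beside 72.4% for Irs1 and 72.8% for Irs2. These matches describe letters in the windows and were not tested for binding.

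Irs1 (chromosome 1, 82233101 to 82291416, minus strand, a single annotated transcript) had 40.2, 51.5, 45.4, 34.3 and 35.7 CPM in control mice. The HFD+mTAC values were 37.7, 27.9, 24.9, 20.97 and 29.5 CPM. Of the 5 HFD+mTAC mice, 4 lay below the lowest control, and mouse TT-588, at 37.7 CPM, overlapped the control range. Irs1 thus had a log2 fold change of -0.56 (SE 0.16, 95% interval -0.90 to -0.21, unadjusted p = 0.00392 in edgeR's fit over all genes), and with edgeR's Benjamini-Hochberg adjustment over 13291 genes the p was 0.307. Irs1 ranked 169th of 13291 genes by p. Under 19 other settings its log2 fold change ran from -0.69 to -0.41. The unadjusted p from edgeR, DESeq2 or limma ran from 5.36e-04 to 0.0175, and the adjusted p from 0.0824 (DESeq2) to 0.681 (limma on TPM). The ends at -0.69 and 5.36e-04 both came from the fit without mouse TT-588. With all mice kept, these ends were -0.67 (length offset) and 0.00104 (DESeq2). Because mouse TT-588 was the only one that overlapped, leaving it out separates the Irs1 groups by construction and adds no support. The cardiomyocyte marker sum was below every control in all 5 HFD+mTAC mice, by a smaller log2 amount for its median gene (-0.21), and its part in the Irs1 difference was not tested. Irs1 was most alike across mice to Ciapin1, Crybg3 and Ccl7 (differences 0.332, 0.363 and 0.398), and among the 10 genes to Akt2 (0.567).

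Irs2 (chromosome 8, 10984681 to 11008458, minus strand, a single annotated transcript) had 107, 120, 129, 97.8 and 63.0 CPM in control mice. In HFD+mTAC mice Irs2 was at 144, 45.7, 74.8, 28.6 and 155 CPM. The highest 2 and the lowest 2 of all 10 mice were in the HFD+mTAC group, so that its values surrounded those of the controls. The highest mouse held 5.42 times the level of the lowest, the widest range of the 10 genes, and the coefficient of variation was 24.7% in control and 63.9% in HFD+mTAC mice. Irs2 had a log2 fold change of -0.21 with a standard error of 0.39 and a 95% interval from -1.05 to 0.64 (edgeR adjusted p = 0.935), so the data set wide bounds on any change. The 3 genes nearest to Irs2 were Nr4a3 (difference 0.243), Thbs1 (0.344) and Cfap43 (0.405), and among the 10 genes the nearest was Irs1 (0.777). Nr4a3, a nuclear receptor of the immediate-early class, was at 142, 15.1, 30.2, 12.3 and 180 CPM in the HFD+mTAC mice and at 76.6, 110, 91.4, 82.3 and 27.4 CPM in controls. Thbs1, which encodes the matrix protein thrombospondin 1, was at 297, 98.9, 138, 36.8 and 320 CPM in the HFD+mTAC mice. Mice TT-588 and TT-592 were high and mice TT-589 and TT-591 low for all of these genes.

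**Figure D2:**
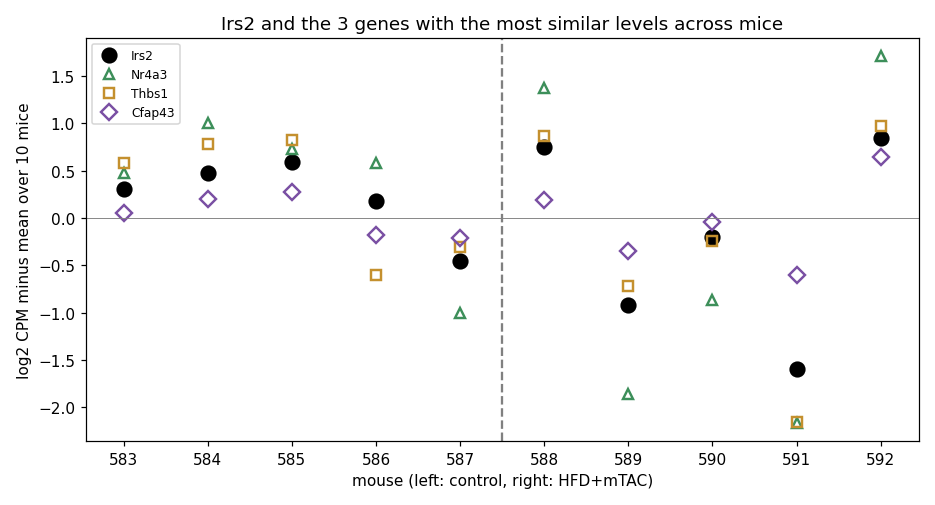
Log2 CPM minus its mean over the 10 mice (vertical axis) for Irs2 and the 3 genes with the most similar levels, Nr4a3, Thbs1 and Cfap43, with mice along the horizontal axis, control left of the dashed line and HFD+mTAC right of it. Mice TT-588 and TT-592 are the highest and mouse TT-591 the lowest for Irs2, Nr4a3 and Thbs1, and the genes were chosen for this likeness.

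Pik3r1 encodes p85alpha, the regulatory subunit that docks PI3K on the IRS adaptors (chromosome 13, 101680563 to 101768217, minus strand). Control mice had 110, 122, 160, 152 and 125 CPM. The HFD+mTAC mice showed 190, 195, 106, 133 and 150 CPM. Mice TT-588 and TT-589 were above every control, and mouse TT-590 was below every control. Pik3r1 had a log2 fold change of 0.21 (SE 0.16, 95% interval -0.14 to 0.57, edgeR adjusted p = 0.795), and with transcript lengths in the model it was -0.34, so no direction is given. Its nearest genes were Anapc1, Trappc11 and Ep300 (differences 0.292, 0.314 and 0.319), and among the 10 genes Foxo3 (0.659).

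Akt1 and Akt2, the kinases that PI3K activates, had narrow ranges on the count scale. Akt1, known for roles in growth and survival (chromosome 12, 112653821 to 112674884, minus strand), had 241, 244, 278, 228 and 212 CPM in control mice. HFD+mTAC mice had 267, 247, 214, 213 and 219 CPM, all within the control range. Akt1 had a log2 fold change of -0.05 (SE 0.10, 95% interval -0.26 to 0.15, edgeR adjusted p = 0.927). Akt2, the form most tied to insulin-stimulated glucose uptake (chromosome 7, 27591552 to 27640826, plus strand), had 228, 250, 255, 221 and 200 CPM in control mice. HFD+mTAC mice had 226, 221, 194, 196 and 220 CPM. Mice TT-590 and TT-591 were just under the lowest control value, and the log2 fold change was -0.13 (SE 0.09, 95% interval -0.32 to 0.06, edgeR adjusted p = 0.771). Both directions turned with the length-corrected values: on log2(TPM + 1), where TPM corrects the counts for transcript length and scales them to a common total, limma gave 0.38 for Akt1 and 0.61 for Akt2 (adjusted p = 0.877 and 0.781), so no direction is given for either. Akt1 was nearest to Dnajc11, Helz and Trip12 (0.214, 0.334 and 0.342) and Akt2 to Rhot2, Ptcd2 and Slc35e1 (0.244, 0.284 and 0.319). Dnajc11 and Rhot2 encode mitochondrial outer membrane proteins.

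Foxo1 and Foxo3 encode the transcription factors that AKT holds out of the nucleus. Foxo1 (chromosome 3, 52268336 to 52353221, plus strand) had 53.7, 45.8, 42.8, 40.2 and 51.2 CPM in control mice. In HFD+mTAC mice Foxo1 was at 39.7, 47.6, 42.9, 45.2 and 43.2 CPM, and mouse TT-588 alone was below the control range. This gave Foxo1 a log2 fold change of -0.10 (SE 0.10, 95% interval -0.30 to 0.11, edgeR adjusted p = 0.855). Foxo3 (chromosome 10, 42181841 to 42276755, minus strand) had 83.4, 95.7, 116, 124 and 90.8 CPM in control mice. Foxo3 was at 108, 133, 99.2, 106 and 122 CPM in HFD+mTAC mice, and mouse TT-589 alone was above the control range. This gave Foxo3 a log2 fold change of 0.15 (SE 0.12, 95% interval -0.11 to 0.42, edgeR adjusted p = 0.800). Foxo1 had the least close neighbours of the 10 genes, Rab3ip, Tmem62 and Bet1 (0.477, 0.505 and 0.513), and Foxo3 was nearest to Pomt1, AU022252 and Dolpp1 (0.415, 0.438 and 0.468).

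**Figure D3:**
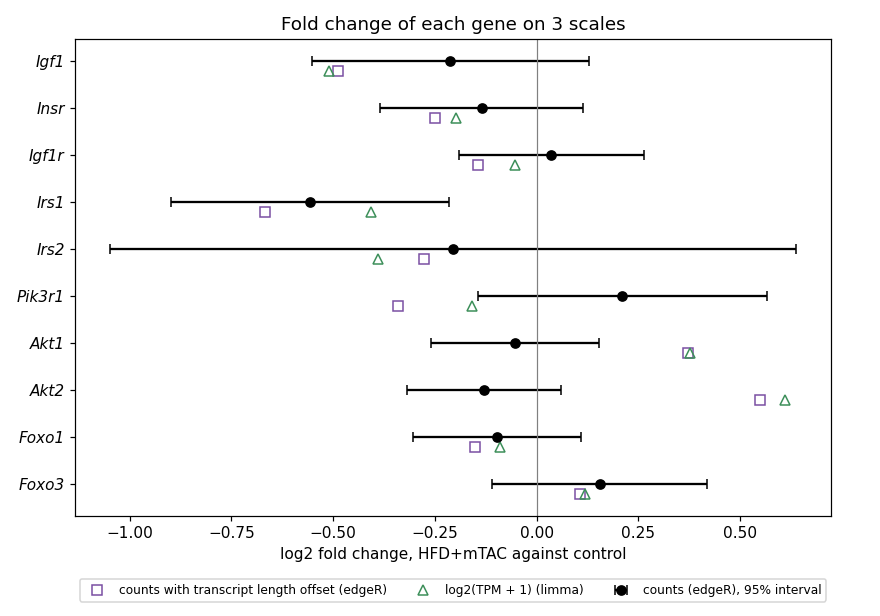
Log2 fold change, HFD+mTAC against control (horizontal axis), of the 10 genes on 3 scales: counts with edgeR and 95% intervals (black), counts with transcript lengths in the model (purple squares) and log2(TPM + 1) with limma (green triangles). Irs1 has the only black interval that leaves out 0, from -0.90 to -0.21, while Akt1, Akt2, Pik3r1 and Igf1r change sign between the black and the coloured marks.

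On the deposited TPM, the AKT kinases stood far above the rest of the chain. In control mice, TPM was 15.5 ± 5.22 for Akt1 and 15.0 ± 5.39 for Akt2 (SD, n = 5), and Akt1 exceeded Akt2 in 2 of 5 mice. The next level was 1.73 ± 0.15 for Igf1, below Akt2 in 5 of 5 mice. Igf1, Irs2 (1.65 ± 0.61), Pik3r1 (1.43 ± 0.85) and Insr (1.23 ± 0.25) followed within their spread, since each exceeded the next in only 2, 3 and 1 of 5 mice. Insr exceeded Foxo3 (0.79 ± 0.15 TPM) in 5 of 5 mice, and Foxo3 and Foxo1 (0.72 ± 0.19 TPM) were not ordered beyond their spread. Irs1 at 0.37 ± 0.13 TPM and Igf1r at 0.17 ± 0.05 TPM came last, each below the gene before it in 5 of 5 mice. In HFD+mTAC mice the same 2 genes were again lowest, Irs1 at 0.21 ± 0.07 and Igf1r at 0.14 ± 0.04 TPM, and Akt2 (21.2 ± 9.10) and Akt1 (19.1 ± 10.0) highest.

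These levels lean on the deposited effective lengths, which were longer than the longest transcript of GENCODE M21 in all 10 mice for 7 of the 10 genes: Insr, Igf1r, Irs1, Irs2, Pik3r1, Foxo1 and Foxo3. Irs1, with 1 annotated transcript of 9144 bases, had a mean deposited length of 18094 bases in control and 19692 in HFD+mTAC mice. Between mice, the highest length was 3.07 times the lowest for Pik3r1, 2.97 times for Akt1, 2.95 times for Akt2 and 2.90 times for Igf1, and 1.21 to 1.56 times for the other 6, beside a median of 1.42 over genes tested. The long span of Pik3r1 came from control mouse TT-585, at 8097 bases where the other 9 mice had 15903 to 24878. Akt2 had a mean length of 2630 bases in control and 1641 in HFD+mTAC mice, a log2 difference of -0.66, and Irs1 a log2 difference of 0.14 (adjusted p = 0.585 by limma for both). By limma on log2 length, 0 of the 10 genes and 0% of 13183 genes passed an adjusted p of 0.05, and Akt2 and Irs1, 2 of the 10, had an unadjusted p under 0.05 beside 7.08% of all genes.

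**Figure D4:**
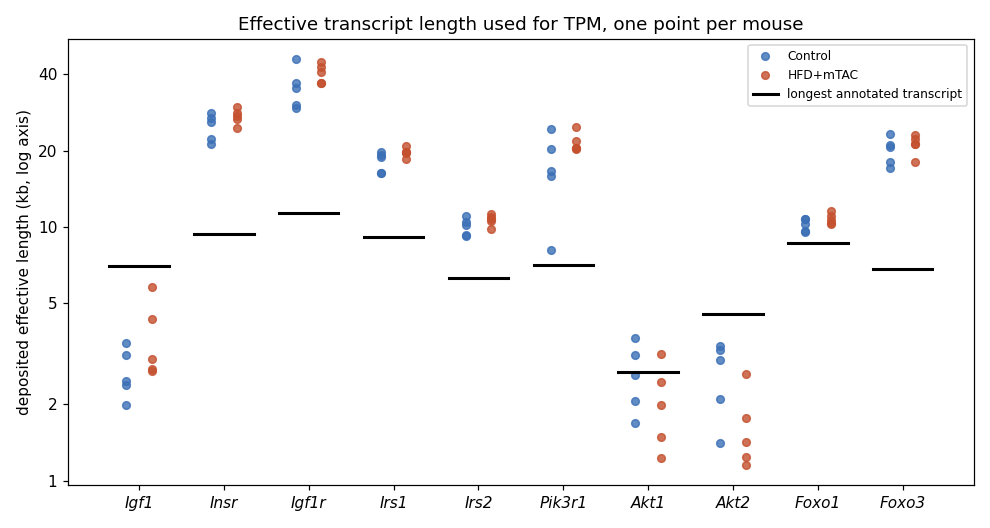
Deposited average effective transcript length in kilobases (log axis) for each of the 10 genes, with one point per mouse, control in blue and HFD+mTAC in red, and the longest annotated transcript as a black bar. Akt1, Akt2, Igf1 and Pik3r1 spread about 3-fold between mice, and 7 genes sit above their black bar in every mouse.

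Within-mouse ratios asked whether the balance between paired members of the chain shifted, and 0 of 5 ratios did so detectably. On TPM, Insr was 6.44 to 9.23 times Igf1r in control and 4.55 to 9.09 times in HFD+mTAC mice (log2 difference -0.12, exact permutation p = 0.595). Irs2 was 3.24 to 5.25 times Irs1 in control mice, and in HFD+mTAC mice the ratio spread from 2.54 to 9.91 around them (0.16, exact permutation p = 0.683). Foxo3 to Foxo1 was 0.83 to 1.59 in control and 1.08 to 1.53 in HFD+mTAC mice (0.25, exact permutation p = 0.230). Igf1 to Igf1r was 7.23 to 17.1 in control and 4.40 to 15.7 in HFD+mTAC mice (-0.48, exact permutation p = 0.286). Akt2 to Akt1 was 0.70 to 1.16 in control and 0.85 to 2.00 in HFD+mTAC mice (0.23, exact permutation p = 0.452), while the same ratio of counts stayed between 0.84 and 1.02 in all 10 mice and its log2 difference was -0.07. Adjusted over the 5 ratios, each two-sided p was 0.683.

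The wider pathway was read from 94 genes in 11 role lists, which include the 10. Of these, 85 were tested and 0 passed edgeR's adjusted threshold. At an unadjusted p under 0.05, 12 of 85 (14.1%) differed, 8 higher and 4 lower in HFD+mTAC mice, beside 8.27% of all genes. Under the other settings this count ran from 6 to 15. It was 6 with limma on log2(TPM + 1), beside 6.7% of all genes, and 15 with upper-quartile normalization, beside 8.31%. The median log2 fold change over the 85 was 0.01, with 45 positive and 40 negative values.

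Beyond the 10 genes, the smallest p-values belonged to Deptor and Socs3. Deptor, an inhibitor that binds the mTOR kinase, was at 24.2, 22.7, 24.3, 23.5 and 22.4 CPM in control mice. It was at 36.2, 34.8, 30.9, 27.0 and 29.5 CPM in HFD+mTAC mice, so every HFD+mTAC mouse was above every control. The log2 fold change was 0.43 (SE 0.10), with an adjusted p of 0.197 in edgeR and 0.0172 in DESeq2, which called Deptor and no other of the 85 but also called 118 of all genes (0.888%) where edgeR called 8, and up to 0.742 over the 19 other settings. Rheb, the small GTPase that activates TORC1, had a log2 fold change of -0.22, and Akt1s1, which encodes the TORC1 inhibitor PRAS40, one of 0.17 (edgeR adjusted p = 0.461 and 0.601). Socs3, an inhibitor that binds the receptors and IRS proteins, was at 10.4 ± 3.06 CPM in control and 5.96 ± 1.77 CPM in HFD+mTAC mice (SD, n = 5, log2 fold change -0.80, edgeR adjusted p = 0.352). The phosphatase gene Phlpp1, which encodes an enzyme that dephosphorylates AKT, had groups that did not overlap, higher in HFD+mTAC mice, at a log2 fold change of 0.16 (edgeR adjusted p = 0.607). Ptpn1, which encodes a phosphatase that acts on the insulin receptor, had one of 0.23 (adjusted p also 0.607 in edgeR). Of the 85 genes, Deptor, Phlpp1 and the GLUT4 gene Slc2a4 were the ones whose groups did not overlap, beside 1.96% of all genes. They were named for a small p in their lists, so the lack of overlap adds no separate support.

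At the level of PI3K, Pik3cd, the catalytic subunit best known from leukocytes, had a log2 fold change of 0.45 and Pik3r2, which encodes p85beta, one of 0.25 (edgeR adjusted p = 0.374 and 0.421). Among upstream genes, the secreted Igfbp5 had one of 0.18 and the clearance receptor gene Igf2r one of 0.23 (edgeR adjusted p = 0.573 and 0.713). Of 18 FoxO target genes tested, 3 (16.7%) had an unadjusted p under 0.05, all higher in HFD+mTAC mice, beside 8.27% of all genes in either direction and 4.54% higher. They were Cat, which encodes catalase (log2 fold change 0.33), the stress-response gene Sesn1 (0.25) and Pdk4, the kinase gene that restrains glucose oxidation (0.60, with 444 ± 152 CPM in control and 673 ± 218 CPM in HFD+mTAC mice, SD, n = 5), with edgeR adjusted p-values of 0.371, 0.504 and 0.597. Over the 18 targets the median log2 fold change was 0.07, with 13 positive and 5 negative values. The largest value in size was a negative one, at -0.61 (edgeR adjusted p = 0.759), so no common direction of the targets is given.

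At the output end, Slc2a4, which encodes the insulin-responsive transporter GLUT4, was at 540, 548, 600, 533 and 549 CPM in control mice. It was at 475, 514, 465, 421 and 509 CPM in HFD+mTAC mice, all below every control. The log2 fold change was -0.22 (SE 0.08, unadjusted p = 0.0165 and adjusted p = 0.461 in edgeR). Over the 19 other settings it ran from -0.31 to -0.18, and the unadjusted p from edgeR, DESeq2 or limma from 0.00537 to 0.250, the highest with limma on TPM. The cardiomyocyte marker sum was also lower without overlap, although each single gene of the list overlapped between the groups. The list had a median of -0.21, nearly the same size, and its part in the Slc2a4 difference was not tested. Of the 11 genes for glucose uptake and glycogen, Slc2a4 was the one with an unadjusted p under 0.05 (9.09%, near the 8.27% of all genes). Of the 11 values 8 were negative, beside 49.6% of all genes, among them Hk1 (-0.22) and the basal transporter gene Slc2a1 (-0.15). The other genes with the smallest p in their lists had log2 fold changes of -0.07 (Igf2), -0.27 (Igfbp3), 0.06 (Grb2), 0.08 (Gab1), -0.06 (Pik3cb), 0.16 (Pdpk1), 0.10 (Mtor), 0.09 (Foxo4) and -0.35 (Foxo6). Irs3 (-0.96) and Igfbp2 (0.79) had larger values at means under 1 CPM in both groups, and none of these passed edgeR's adjusted threshold.

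**Figure D5:**
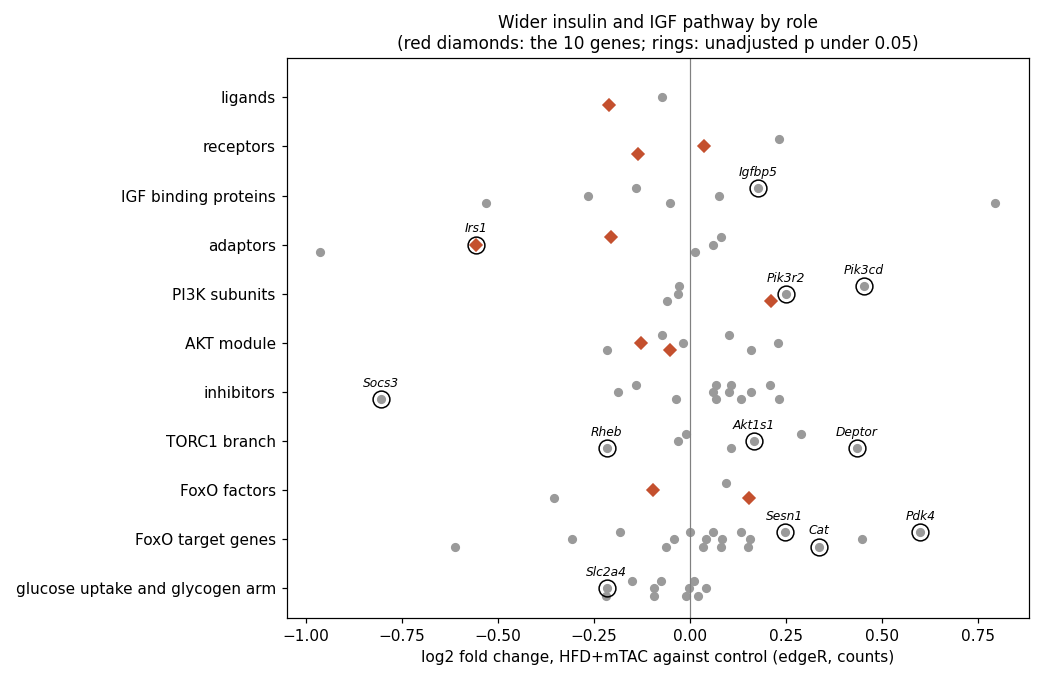
Log2 fold change, HFD+mTAC against control, from counts with edgeR (horizontal axis) for the 85 tested genes of the wider pathway in 11 role lists (vertical axis), with the 10 genes as red diamonds, the other genes in grey and rings where the unadjusted p was under 0.05. The 12 ringed genes comprise 8 to the right of 0 and 4 to the left, and Irs1 is the only ringed diamond.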

How the data were processed

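RNA of 10 left ventricles was analysed, with each mouse's group taken from its label. The authors deposited salmon expected counts per gene (not whole in 20.07% of values), TPM values and average effective transcript lengths. The methods name GENCODE transcripts of GRCm38, whereas the submitters' processing notes name hg38 and Salmon 1.6.0. The read layouts given by the methods and the labels also differ. Deposited TPM equalled counts over length within a relative difference of 0.000507. No other value columns were used.

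Symbols were matched to GENCODE M21 (27812 directly, 864 by an older symbol, 888 unmatched). Counts were rounded, and 13291 protein-coding nuclear genes with at least 1 count in 9 of 10 mice were tested with edgeR 4.0.16 in R 4.3.3 (TMM factors, quasi-likelihood test, 5 against 5 mice, no covariate, Benjamini-Hochberg adjustment, common dispersion 0.0422). CPM values are TMM-scaled, except the marker sums, which are scaled by the total counts of the genes tested without TMM factors. Lengths on the log2 scale, centred per mouse, were tested with limma 3.58.1. Ratios and marker sums were tested by two-sided exact permutation over 252 arrangements (smallest p 0.00794). DESeq2 1.42.0, limma on log2(TPM + 1) and log2(TPM + 0.1), a length offset, other normalizations and filters, and leaving out each mouse were alternatives. Fits were tested on simulated data. Pairs of libraries within a group differed by a chi-square per degree of freedom of at least 12.5.

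The genes and lists were chosen with earlier results of these data known. Named were the 10 genes, up to 3 further genes per role list by smallest p and, per gene, the 3 most alike across mice, of which some are not reported here. The labels give no batch. Intervals rest on the spread between 5 mice a group.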

Additional observations from a re-analysis of the deposited data

How the results depend on the processing

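Under 19 alternatives, 174 of 190 fold changes of the 10 genes kept their direction and stayed on the same side of the adjusted threshold, and 16 reversed; the count of the 10 called was 0 throughout. With limma on log2(TPM + 1), log2(TPM + 0.1) and with a length offset, the log2 fold change became -0.054, -0.098 and -0.14 for Igf1r, -0.16, -0.17 and -0.34 for Pik3r1, 0.38, 0.38 and 0.37 for Akt1, and 0.61, 0.61 and 0.55 for Akt2; these scales differ from counts by the transcript lengths. Igf1 stayed negative, at -0.51, -0.58 and -0.49. Leaving out 1 mouse moved Igf1r between -0.0095 and 0.084 (reversed without mouse TT-588, -0.0017, or TT-591), Irs2 between -0.50 (without TT-592) and 0.019 (without TT-591) and Akt1 between -0.11 and 0.0045 (without TT-585). The number of genes called over the whole table was 8, and 118 with DESeq2 (61 higher, 57 lower), 1 with limma on log2(TPM + 1), 1 on log2(TPM + 0.1), 1 with a length offset and 1 to 9 with 1 mouse left out; the cause was not tested. DESeq2 called 1 gene of the wider pathway. The number of the 10 genes whose groups did not overlap was 0 to 1 with 1 mouse left out. The log2 ratio of Insr to Igf1r ranged from -0.22 to 0.028 with 1 mouse left out, and that of Irs2 to Irs1 from -0.091 to 0.40. With a pseudocount of 1 on TPM, Irs2 to Irs1 was -0.098 and Igf1 to Igf1r was -0.35 (exact permutation p = 0.0397, n = 5 a group). That p was not adjusted over the 5 ratios or the scales tried. For Igf1 to Igf1r the same test gave 0.286 on TPM without a pseudocount and 0.151 on counts. Igf1r was at most 0.23 TPM in any mouse, so a pseudocount of 1 outweighs it. The count ratio of Akt2 to Akt1 was -0.073. No paired analysis was possible because the mouse numbers are not shared between the groups. Depth limited none of the 10 genes, while 9 of the 94 pathway genes did not pass the filter on counts, 5 of them listed at 0 in every mouse.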

Other observations

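Of the wider pathway, 9 genes from several role lists were not tested because they did not pass the filter on counts. Ins1, Ins2, Sh2b2, Tsc2 and Sesn3 were listed at 0 estimated counts in all 10 mice, and whether an exact 0 is a failed estimate was not tested, so it is not read here as lack of expression. Over all mice, Insrr (the insulin receptor-related receptor) summed to 15 estimated counts, Socs1 to 13, Igfbp1 to 4 and Irs4 to 4.

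The order of levels was also computed as CPM per kilobase of the longest annotated transcript, a scale chosen after seeing the deposited lengths. Akt1 (89.5 ± 9.07, SD, n = 5 control mice) then stood above Akt2 (50.8 ± 4.94) in 5 of 5 control mice. Insr (20.8 ± 1.02), Pik3r1 (18.8 ± 2.97), Irs2 (16.3 ± 4.04) and Foxo3 (14.9 ± 2.55) followed without an order beyond their spread. The AKT genes were again highest, but the step from Akt2 to the next gene was smaller in proportion than on TPM (50.8 and 20.8 here, 15.0 and 1.73 on TPM). Foxo1 (5.39 ± 0.65), Irs1 (4.53 ± 0.78), Igf1 (4.23 ± 0.70) and Igf1r (3.24 ± 0.28) came last. Igf1, the level next below the AKT genes on TPM, was thus ninth of 10 on this scale, where its longest annotated transcript of 7052 bases replaced deposited lengths of 1992 to 5778 bases.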
